A study of Mus musculus with 94 samples.

Results

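Epididymal and inguinal white fat of lean mice were compared within the same animals. The comparison took 48 of the 94 libraries of the study, 24 of epididymal fat (eWAT) and 24 of inguinal fat (iWAT), with a library of each depot from every one of 24 lean mice among the 47 mice sequenced. These mice are the 4 lean control groups of a study of diet-induced obesity and its regression, and none of them ate a high-fat diet. All were male C57BL/6JBomTac mice, kept with cage mates on the low-fat diet D12450J; the labels do not say which mice shared a cage. The obese arm, not analysed here, began its high-fat diet at 10 weeks of age and ate it for 18 weeks. The lean groups were taken at the end of that period (0 weeks) and 2, 6 and 12 weeks later, at 28, 30, 34 and 40 weeks of age, with 6 mice at each time. The depot difference was taken as eWAT over iWAT within each mouse.

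Epididymal fat is a visceral depot. It hangs in the abdominal cavity beside the epididymis and vas deferens, and a sheet of mesothelium, the epithelium that lines the body cavities, covers it. Inguinal fat is a subcutaneous depot of the groin. It lies against muscle and skin, surrounds a lymph node, and in mice holds beige adipocytes, fat cells that can burn fuel for heat through the uncoupling protein Ucp1. Hox genes, which mark position along the body axis in the embryo, stay active in adult fat, and their use differs between depots.

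Poly(A) RNA of whole frozen tissue was sequenced, so a level is an average over all cells of a piece, and fewer cells of a type and less RNA per cell cannot be told apart. The deepest eWAT library held 17.8 M counts and the shallowest 5.93 M (median 8.59 M), against 17.3 M and 6.27 M (median 8.64 M) for iWAT. The library names number the depots in separate blocks, so whatever goes with that numbering and the depot cannot be told apart. A level in CPM is a gene's counts per 1 M of the library's total, the totals having been adjusted by TMM. Where 3 levels stand in a row they are the lowest, the median and the highest of the 24 libraries of a depot. The call rule was an adjusted p (Benjamini-Hochberg) under 0.05 in edgeR's two-sided quasi-likelihood test. Log2 fold changes carry their standard error after the ± sign.

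Genes of adipocytes were high in both depots. The adipokine gene Adipoq read 2485, 4272 and 5745 CPM in eWAT and 1559, 3177 and 3670 CPM in iWAT, and the leptin gene Lep read 575, 1211 and 2259 CPM in eWAT and 266, 774 and 1585 CPM in iWAT. Cilia, duct, muscle and lymph node genes were found in part of the libraries. In iWAT, the summed level of 24 skeletal muscle genes was 55.7, 1760 and 54500 CPM, against 48.3, 60.9 and 244 CPM for eWAT; 1 eWAT library (6 weeks replicate 5) and 19 of the 24 iWAT libraries passed the threshold set for a muscle signal, a list mean of at least 2 log2 CPM. The 15 lymph node B cell genes found summed to 12.6, 20.4 and 84.3 CPM in eWAT and to 9.75, 24.6 and 1630 CPM in iWAT; 2 eWAT and 8 iWAT libraries passed the same threshold, and the mice of both eWAT libraries were among the 8. In eWAT, 17 genes of motile cilia, which line the efferent ducts beside this fat pad, summed to 12.6, 103 and 523 CPM, against 8.6, 11.6 and 18 CPM in iWAT; 13 eWAT libraries passed the threshold, including all 6 at 12 weeks. The threshold means covered only list members with enough counts to be tested: 15 muscle, 10 B cell and 4 cilia genes. They thus rest on fewer genes than the sums. Foxj1, the master transcription factor of motile cilia, read 0, 40.8 and 258 CPM in eWAT. Genes of the epididymal duct and vas deferens (25 in the list, 10 of them at 0 in every iWAT library) reached 5380 CPM in the eWAT library of 6 weeks replicate 5 and 2440 CPM in that of 2 weeks replicate 2, and 4 eWAT libraries were at 100 CPM or more. In iWAT the same genes stayed between 0.259 and 2.17 CPM. The 12 testis genes of a further list summed to 6.18, 9.15 and 88.5 CPM in eWAT and to 6.22, 8.36 and 12.4 CPM in iWAT. Insl3 alone read 3.03, 5.12 and 7.74 CPM in eWAT and 3.37, 5.9 and 8.38 CPM in iWAT. The list's Tnp1, Akap4 and Smcp were at 0 in every iWAT library.

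**Figure D1:**
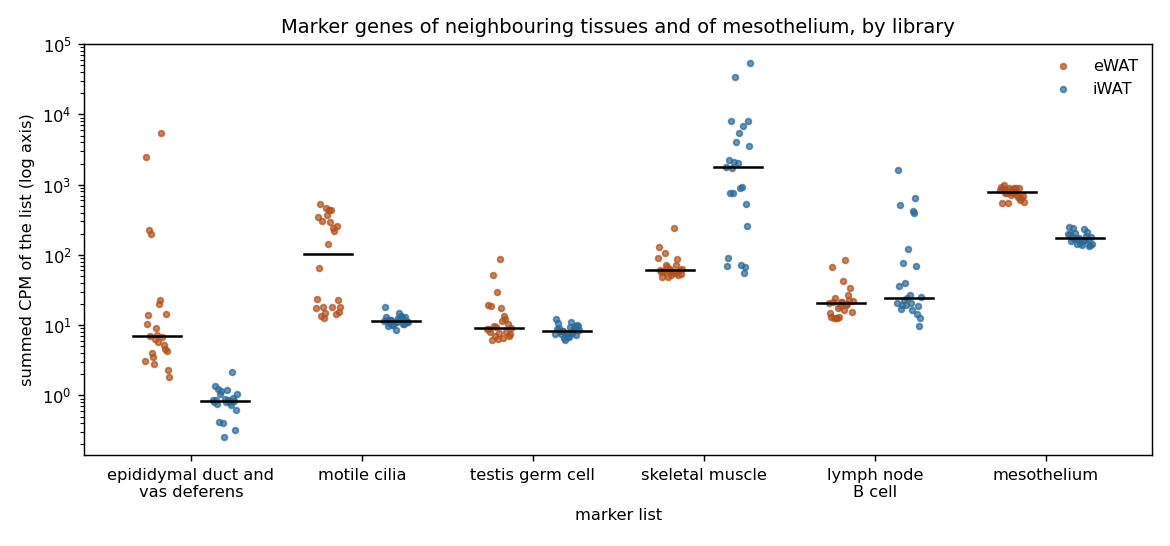
Summed CPM (log axis) of marker lists of neighbouring tissues and of mesothelium in each of the 24 eWAT (left of each pair) and 24 iWAT libraries, with the median as a bar. Muscle genes spread from 55.7 to 54500 CPM in iWAT and motile cilia genes from 12.6 to 523 CPM in eWAT, while mesothelium genes kept to 544 to 1000 CPM in eWAT and 132 to 252 CPM in iWAT.

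The depots differed widely. Of 13003 genes tested, 7277 were called (56%), of which 3516 were higher in eWAT (27%) and 3761 lower (28.9%). The list counts below are to be read against these shares. With 24 pairs small differences pass such a test, and 1088 genes were called at 2-fold or more (8.37%): 635 higher in eWAT (4.88%) and the rest lower (3.48%). In 253 genes (1.95%) the lowest library of the higher depot lay above the highest of the other, 166 of them higher and 87 lower in eWAT. The median log2 fold change over all genes tested was -0.01. When libraries were scaled by their totals without TMM, 4497 genes were higher and 2668 lower in eWAT, a share of 62.8% higher against 48.3% with TMM, and the median over all genes was 0.05. The first principal component, with 42.5% of the variance, put the eWAT libraries between 21.5 and 58.5 and the iWAT libraries between -50.8 and -28.3.

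Genes that followed the other tissues were set apart before depot genes were named. How the counting treated strand is not given in the sources used, so reads of overlapping antisense genes, as in the Hox clusters, and of near-identical family members cannot be told apart. A gene was set apart if it belonged to such a tissue's list, if its level across the 24 libraries of the higher depot followed the mean of such a list (Spearman rho of at least 0.7), or if 3 libraries held at least 50% of its summed CPM. The means were taken over tested members, 4 for motile cilia, and only for lists with at least 3 of them. The duct and vas deferens list had 1 tested member, the testis list 2 and the blood list 1. Genes that followed these tissues were thus not sought by rho. Of the 635 genes higher in eWAT at 2-fold or more, 256 (40.3%) were set apart, and 237 of these followed the motile cilia genes. Of the genes lower in eWAT at that size, 147 (32.5%) were set apart: 53 followed muscle, 44 lymph node stroma, 13 lymph node T cells and 4 lymph node B cells, and 30 were list members. The largest fold changes among genes set apart were those of Dsp (desmoplakin, 9.46 ± 0.25), Lrp2 (megalin, 8.96 ± 0.32) and Krt8 (keratin 8, 8.56 ± 0.24) in eWAT, and of Myh4 (fast myosin heavy chain, -13.98 ± 0.32), Ckm (muscle creatine kinase, -9.46 ± 0.85) and Tnni2 (fast troponin I, -8.62 ± 0.36), which were lower in eWAT. Myh4 read 0, 0 and 0.376 CPM in eWAT and 0.122, 381 and 13407 CPM in iWAT; Krt8, which mesothelium also makes, read 2.91, 39.5 and 92 CPM in eWAT and 0, 0 and 1.43 CPM in iWAT. Dsp, Lrp2 and Krt8 all followed the cilia genes and did not overlap between the depots. That left 379 genes higher and 306 lower in eWAT at 2-fold or more. These genes were chosen by the fit over the same mice, which largely fixes their direction by time and by mouse, so the following counts are a description. Of the 327 higher genes tested at each of the 4 times, 326 had the same direction at all 4 and 263 were called at all 4, and 262 of the 379 were higher in eWAT in 24 of 24 mice. Of the 274 lower genes tested at each time, 273 had the same direction throughout and 202 were called at all 4, and 180 of the 306 were lower in eWAT in every mouse.

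The strongest eWAT genes were those of mesothelium and of transcription factors of the visceral mesenchyme, and almost no counts of them were found in iWAT. Upk3b, a uroplakin made by mesothelium (chromosome 5, 136038496 to 136046487, plus strand, mm10), read 57.7, 140.4 and 218 CPM in eWAT and 0, 0 and 0.569 CPM in iWAT (log2 fold change 11.08 ± 0.16, adjusted p = 8.74e-28). Wt1, a zinc finger factor of mesothelium and of visceral fat progenitors (chromosome 2, 105126529 to 105173616, plus strand, mm10), read 11.4, 23.5 and 37 CPM in eWAT and 0, 0 and 0.138 CPM in iWAT (log2 fold change 9.57 ± 0.18, adjusted p = 4.11e-25). The groups did not overlap for either gene, and the median iWAT library held no count of them. Tcf21, a bHLH factor of visceral mesenchyme (chromosome 10, 22817281 to 22820174, minus strand, mm10), read 5.99, 10.6 and 17.6 CPM in eWAT and 0, 0 and 0.141 CPM in iWAT. Bnc1, the zinc finger protein basonuclin (chromosome 7, 81966672 to 81992292, minus strand, mm10), read 8.06, 16.2 and 26.4 CPM in eWAT and 0, 0 and 0.126 CPM in iWAT; the 24 iWAT libraries held 3 counts of it in all, against 3579 in eWAT, and the counting interval of the ratio ran from 412.98 to 5860. The iWAT maximum of all 4 genes was below 1 CPM, and every eWAT library was above it.

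A further 7 of the 12 largest differences had log2 fold changes from 5.86 to 9.11. Igfbp2, a binding protein of insulin-like growth factors, read 6.24, 12.9 and 20.3 CPM in eWAT and 0, 0 and 0.491 CPM in iWAT (log2 fold change 7.13 ± 0.26). Msln, the mesothelial surface protein mesothelin, read 7.19, 13.4 and 23.6 CPM in eWAT and 0, 0 and 0.543 CPM in iWAT (6.76 ± 0.25), and Upk1b, a further uroplakin, read 12.5, 23.4 and 37.1 CPM in eWAT and 0, 0 and 0.247 CPM in iWAT (9.11 ± 0.20). In each the highest iWAT library lay below the lowest eWAT library. The remaining ones were Tmem151a (6.44 ± 0.20), a transmembrane protein, Myrf (6.01 ± 0.17), a membrane-bound transcription factor known from myelin-forming glia, Cdh3 (5.89 ± 0.27), the adhesion protein P-cadherin, and Pkhd1l1 (5.86 ± 0.21), a large receptor-like protein also found in mesothelium. These 11 genes were higher in eWAT in 24 of 24 mice, with no overlap between the depots.

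The strongest iWAT genes were of a different kind: a thermogenic gene, limb and body wall transcription factors, and genes of signalling and matrix turnover. Ucp1, the proton leak of brown and beige fat mitochondria (chromosome 8, 83290352 to 83298452, plus strand, mm10), read 0, 0.0465 and 1.4 CPM in eWAT and 3.34, 29.6 and 147 CPM in iWAT (log2 fold change -8.19 ± 0.24, adjusted p = 7.94e-21). Its iWAT values spread widely, yet the lowest of them lay above the highest eWAT library. Tbx15, a T-box factor of the body wall and of subcutaneous fat (chromosome 3, 99240381 to 99354259, plus strand, mm10), read 0, 0.154 and 0.699 CPM in eWAT and 28.4, 39.1 and 154 CPM in iWAT (-7.78 ± 0.19). Shox2, a homeobox factor of limb skeleton (chromosome 3, 66971727 to 66981771, minus strand, mm10), read 0.221, 0.662 and 1.62 CPM in eWAT and 19.98, 38.5 and 52.2 CPM in iWAT (-5.67 ± 0.15). Hoxc10, a posterior Hox gene (chromosome 15, 102966796 to 102971893, plus strand, mm10), read 0.105, 1.26 and 2.45 CPM in eWAT and 33.7, 58.2 and 104.6 CPM in iWAT (-5.55 ± 0.18). The depots did not overlap for these 3 factors, whose eWAT values stayed at or below 2.45 CPM.

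Otop1, a proton channel of brown and beige fat, read 0.605, 2.47 and 7.65 CPM in eWAT and 31.9, 93.3 and 189 CPM in iWAT (-5.04 ± 0.14). Il1r2, the decoy receptor of interleukin 1, read 0, 0.109 and 0.295 CPM in eWAT and 3.55, 11.3 and 27.8 CPM in iWAT (-6.45 ± 0.20). Neither overlapped between depots, and each was lower in eWAT in 24 of 24 mice. Mmp3, a matrix-cleaving protease, differed by -5.83 ± 0.22, Pcdh20, a protocadherin, by -5.17 ± 0.20, Mrgprg, an orphan receptor of the Mas family, by -4.79 ± 0.26, Wnt2, a secreted Wnt ligand, by -4.62 ± 0.22, and Cldn19, a tight junction claudin of Schwann cells and kidney, by -4.62 ± 0.28 on the log2 scale, all lower in eWAT in 24 of 24 mice.

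**Figure D2:**
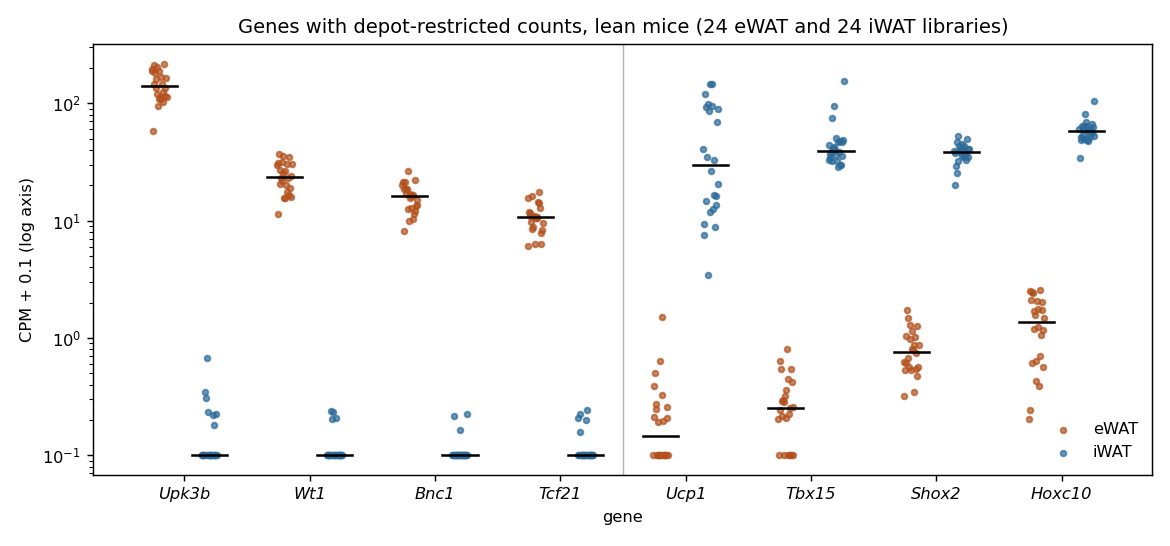
CPM plus 0.1 (log axis) of 4 genes higher in eWAT and 4 lower in eWAT, in each of 24 eWAT (left of each pair) and 24 iWAT libraries, with the median as a bar. Upk3b lies between 57.7 and 218 CPM in eWAT and at most at 0.569 CPM in iWAT, while Ucp1 is at most 1.4 CPM in eWAT and between 3.34 and 147 CPM in iWAT.

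The promoters of a pair of genes of each kind are shown because few counts of these genes were found in the other depot. Each is the 250 bases before the gene's start, taken from RefSeq on GRCm38.p6 and written along the gene's own strand. Capitals mark matches, on either strand, to TATAAA (the TATA box), CCAAT and GGGCGG (the GC box, CCGCCC on the other strand); no match overlapped another. The stretches are chr5:136038246-136038495 on the plus strand for Upk3b, chr7:81992300-81992549 on the minus strand for Bnc1, chr8:83290098-83290347 on the plus strand for Ucp1, and chr3:66981772-66982021 on the minus strand for Shox2.
Upk3b: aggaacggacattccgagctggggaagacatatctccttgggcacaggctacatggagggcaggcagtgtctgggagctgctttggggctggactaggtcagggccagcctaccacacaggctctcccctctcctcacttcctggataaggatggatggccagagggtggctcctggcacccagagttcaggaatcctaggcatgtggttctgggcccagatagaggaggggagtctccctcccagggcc
Bnc1: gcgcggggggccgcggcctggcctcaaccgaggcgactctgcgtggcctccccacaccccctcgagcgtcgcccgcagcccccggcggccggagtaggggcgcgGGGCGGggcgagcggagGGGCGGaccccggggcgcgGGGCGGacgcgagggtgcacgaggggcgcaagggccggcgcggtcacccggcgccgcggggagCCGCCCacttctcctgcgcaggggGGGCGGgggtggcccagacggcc
Ucp1: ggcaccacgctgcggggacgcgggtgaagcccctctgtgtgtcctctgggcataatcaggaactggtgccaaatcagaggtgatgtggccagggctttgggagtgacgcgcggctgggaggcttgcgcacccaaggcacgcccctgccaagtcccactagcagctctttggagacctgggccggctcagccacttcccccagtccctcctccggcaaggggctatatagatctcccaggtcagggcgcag
Shox2: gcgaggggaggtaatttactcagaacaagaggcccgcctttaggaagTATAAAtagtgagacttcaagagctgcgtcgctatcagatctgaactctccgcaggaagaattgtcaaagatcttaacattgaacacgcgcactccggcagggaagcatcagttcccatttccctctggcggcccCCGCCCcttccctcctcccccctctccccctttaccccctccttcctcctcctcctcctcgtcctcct
The Bnc1 stretch held 39 CpG dinucleotides and 5 GC boxes, and the Upk3b stretch 2 CpG and no match. The Ucp1 stretch held 12 CpG and no match, and the Shox2 stretch 11 CpG, 1 TATAAA match and 1 GC box. That TATAAA match ended 198 bases before the gene's start. Over the 32851 promoter entries of that table the median was 6 CpG, and 12.4% held a TATA box, 33.8% a CCAAT box and 32.7% a GC box within the same length. Within each pair the genes differed in these features. Of 221 named genes, 148 had an entry in the table.

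Most Hox genes that passed the test were higher in eWAT, with exceptions at one end of the HoxA and HoxC clusters. Hoxa9, Hoxa10, Hoxc9 and Hoxc10, the members with the highest numbers tested in the HoxA and HoxC clusters, were lower in eWAT, and every other Hox gene that passed the test was higher. In HoxA 6 of 9 tested genes were higher and 2 lower in eWAT, in HoxB 8 of 8 were higher, in HoxC 3 of 6 were higher and 2 lower, and in HoxD 4 of 4 were higher, against 27% higher and 28.9% lower over all genes. Hoxa9 (chromosome 6, 52223100 to 52231089, minus strand, mm10) read 0.421, 4.25 and 10.5 CPM in eWAT and 27.3, 38.1 and 57.6 CPM in iWAT (log2 fold change -3.21 ± 0.19), and Hoxa10 read 0, 1.4 and 27.1 CPM in eWAT and 17, 25.3 and 36.3 CPM in iWAT (-3.64 ± 0.30). Hoxc9 read 4.73, 10.1 and 16.5 CPM in eWAT and 24.5, 29.2 and 35.6 CPM in iWAT (-1.62 ± 0.10). Hoxa9 and Hoxc9 did not overlap between the depots, and Hoxa10 was lower in eWAT in 23 of 24 mice. Hoxa5 read 21.3, 32.3 and 40.3 CPM in eWAT and 10.8, 16 and 22 CPM in iWAT (1.01 ± 0.06). Hoxc4 read 19.9, 36.3 and 48.5 CPM in eWAT and 9.33, 14.1 and 16.8 CPM in iWAT (1.32 ± 0.08), and Hoxd3 read 9.42, 19.8 and 40.3 CPM in eWAT and 3.96, 5.9 and 7.97 CPM in iWAT (1.71 ± 0.15). All 3 were higher in eWAT in 24 of 24 mice. Hoxd9, which carries the same number as Hoxa9 and Hoxc9, was higher, at 10.1, 12.8 and 31.4 CPM in eWAT and 4.75, 7.92 and 21.9 CPM in iWAT (0.72 ± 0.10, 23 of 24 mice). Hoxc6 (0.01 ± 0.07, adjusted p = 0.889) did not pass the test.

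The size of the HoxB difference depended on which mice were used. Hoxb9, also higher in eWAT, read 2.52, 17.6 and 52.1 CPM in eWAT and 1.68, 3.26 and 4.39 CPM in iWAT (log2 fold change 2.22 ± 0.33) and followed the cilia genes across eWAT libraries. Among the 11 mice whose eWAT library had no cilia signal, 3 of 8 HoxB genes were called, where 34.7% of all genes were called, with a list median of 0.40 against 0.69 over all mice, and Hoxb9 differed by 0.70 (adjusted p = 0.189). In the same 11 mice 1 HoxA gene was higher and 2 lower, and 4 of 4 HoxD genes were higher. All 6 mice at 12 weeks had a cilia signal, so these 11 held no 12-week mouse. The HoxB list median was 0.501, 0.705, 0.637 and 0.956 at 0, 2, 6 and 12 weeks. In edgeR's test across ages 0 of 8 HoxB genes were called. With the signals of other tissues as terms over all 24 mice, 8 of 8 HoxB genes were higher (median 0.68) and Hoxb9 differed by 2.07 (adjusted p = 2.89e-12 in edgeR's test). These terms were centred within each depot. They take up the spread between libraries of a depot and leave the mean difference in signal between the depots in the fold change. The part of cilia-bearing tissue in the HoxB values, apart from age, was not tested.

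**Figure D3:**
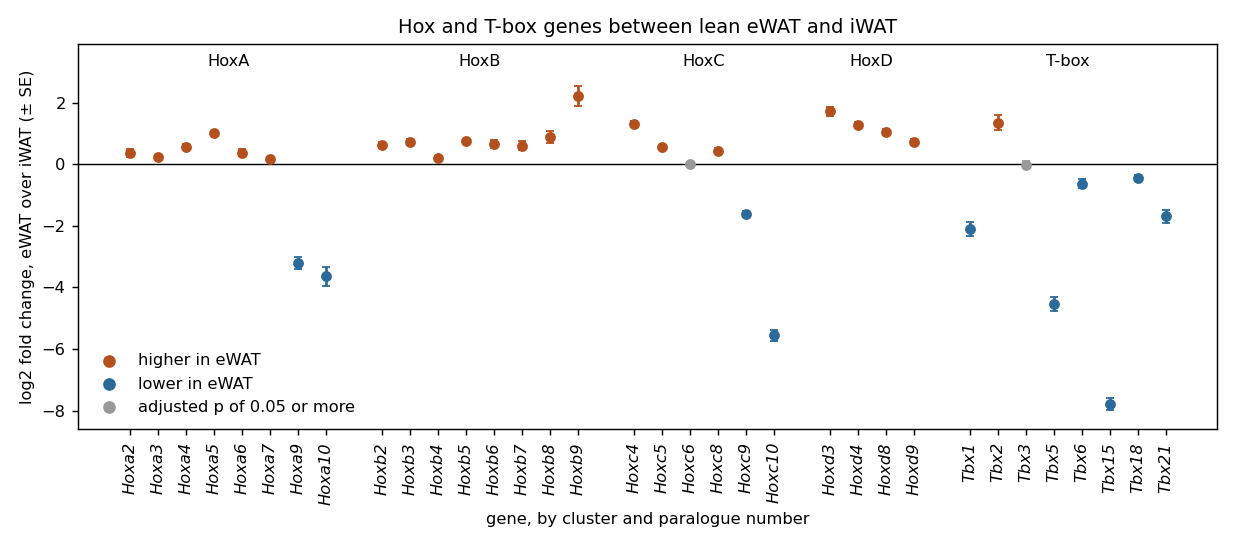
Log2 fold change of eWAT over iWAT (± SE of the fit) for genes of the 4 Hox clusters, ordered by paralogue number, and of the T-box family. Points above 0 are higher in eWAT; Hoxa9, Hoxa10, Hoxc9 and Hoxc10 lie at -3.21, -3.64, -1.62 and -5.55, and Tbx15 at -7.78.

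T-box factors, which pattern limb and heart fields, were mostly lower in eWAT (6 of 8 lower, 1 higher). Over all genes 28.9% were lower and 27% higher. Tbx5, the forelimb and heart factor, read 0, 0.217 and 0.719 CPM in eWAT and 2.68, 4.88 and 8.27 CPM in iWAT (log2 fold change -4.54 ± 0.23), with no overlap. Tbx1, a pharyngeal arch factor also known from beige fat, read 0.105, 1.94 and 3.82 CPM in eWAT and 3.04, 6.69 and 17.9 CPM in iWAT (-2.10 ± 0.22). Tbx2 alone was higher in eWAT at 12.7, 55.6 and 108 CPM in eWAT and 10.5, 15.3 and 30.1 CPM in iWAT (1.35 ± 0.24), and without the mice with a cilia signal it differed by 0.41 (adjusted p = 0.304). Tbx3, which shares a locus with Tbx5, did not pass the test (-0.01 ± 0.11, adjusted p = 0.926).

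Of 27 regional transcription factors tested, 13 were higher and 11 lower in eWAT, and 12 did not overlap between the depots. Over all genes 27% were higher, 28.9% lower and 1.95% without overlap. Gata5, a GATA factor of mesothelium and heart, read 1.44, 3.93 and 8.25 CPM in eWAT and was at 0 counts in all 24 iWAT libraries; set against a floor of 3 counts over those libraries, eWAT was at least 326-fold higher. Isl1, a LIM homeobox factor, read 1.15, 3.24 and 10.6 CPM in eWAT and 0, 0 and 0.371 CPM in iWAT (log2 fold change 5.69 ± 0.28). Gata6, a GATA factor of visceral organs and macrophages, read 33.7, 49.6 and 63.3 CPM in eWAT and 17.9, 25.6 and 31.4 CPM in iWAT (0.92 ± 0.06). These 3 did not overlap between the depots, although the Gata6 difference was below 2-fold. Foxc2, a forkhead factor of mesenchyme and lymph vessels, read 3.17, 8.49 and 12.5 CPM in eWAT and 0.906, 1.71 and 3.24 CPM in iWAT (2.2 ± 0.14). Osr1, an intermediate mesoderm factor, read 39.4, 73.5 and 112 CPM in eWAT and 16.5, 28.1 and 55.5 CPM in iWAT (1.39 ± 0.11). The orphan receptor gene Nr2f1 read 8.45, 13.6 and 23.6 CPM in eWAT and 2.99, 5.17 and 8.91 CPM in iWAT (1.39 ± 0.09). All 3 were higher in eWAT in 24 of 24 mice, though the ranges overlapped.

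On the iWAT side stood limb and body wall factors. En1, a ventral limb homeobox factor, read 0.14, 0.468 and 1.28 CPM in eWAT and 4.63, 7.07 and 11.4 CPM in iWAT (log2 fold change -3.81 ± 0.16). Lhx8, a LIM homeobox factor used as a brown fat marker, read 0, 0 and 0.33 CPM in eWAT and 0.848, 2.91 and 5.67 CPM in iWAT (-5.58 ± 0.36). Prrx1, the paired homeobox factor of limb mesenchyme, read 23.9, 32.6 and 49 CPM in eWAT and 61.5, 104 and 177 CPM in iWAT (-1.64 ± 0.09). All 3 were lower in eWAT in every mouse without overlap. Irx5 (-2.74 ± 0.19), an Iroquois factor, Msx1 (-1.02 ± 0.12), a limb bud factor, Twist1 (-0.88 ± 0.05) and Twist2 (-0.72 ± 0.05), bHLH factors of mesenchyme, were also lower in eWAT in 24 of 24 mice. The homeobox factors Emx2 (0.09 ± 0.33, adjusted p = 0.831), Irx2 (-0.49 ± 0.42, adjusted p = 0.337) and Meox1 (-0.03 ± 0.09, adjusted p = 0.801) did not pass the test. In edgeR's test without the mice with a cilia signal, Irx2 differed by -2.7 (adjusted p = 0.00126). With the signals of other tissues as terms it differed by -0.875 (adjusted p = 0.000128, same test). Without the mice with lymph node, muscle or duct signals Irx2 did not pass. Irx1 was lower in eWAT (-2.43 ± 0.53), a call lost without the mouse block, with 1 eWAT library at 82.7 CPM against a depot median of 0.976 CPM. It also did not pass in the 5 mice without a muscle signal (-1.32, adjusted p = 0.279 in edgeR's test) or at 2, 6 and 12 weeks alone. At 0 weeks alone and without the mice with lymph node, cilia or duct signals Irx1 passed.

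The mesothelium list as a whole was higher in eWAT in 16 of 17 tested members and lower in 0, with a median log2 fold change of 5.63 against -0.01 over all genes, and 13 members did not overlap. Besides the genes above it holds Crb2 (5.63 ± 0.25), a cell polarity protein, Nkain4 (5.55 ± 0.26), a membrane protein that binds the sodium pump, Lrrn4 (3.45 ± 0.14), a leucine-rich repeat membrane protein, and Ezr (1.98 ± 0.20), the actin linker ezrin; these 4 were chosen after their values were seen. Cldn15, a claudin, was the member that did not pass the test (0.00 ± 0.08, adjusted p = 0.978). The summed level of the 18 genes found was 544, 776 and 1000 CPM in eWAT and 132, 173 and 252 CPM in iWAT. Leaving out the mice with lymph node, cilia or duct signals each left 16 members called higher, and the 5 mice without a muscle signal gave 14. In those 5 mice 16.4% of all genes were called, against 56% in all mice. Each of the 5 had a signal of another tissue in eWAT. That signal was of cilia in 0 weeks replicate 3, 2 weeks replicate 1, 6 weeks replicate 3 and 12 weeks replicate 6. In 2 weeks replicate 2 it was of duct.

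Thermogenic genes were lower in eWAT in 18 of 20 members and higher in 0, with a median log2 fold change of -1.23. Cidea, a lipid droplet protein of brown and beige fat, read 4.97, 11.2 and 21.7 CPM in eWAT and 45.6, 177 and 279 CPM in iWAT (log2 fold change -3.98 ± 0.13, adjusted p = 2.55e-19). Cpt1b, the carnitine transferase of muscle and brown fat mitochondria, read 0.888, 1.7 and 4.26 CPM in eWAT and 5.67, 20.02 and 39.3 CPM in iWAT (-3.30 ± 0.15). Elovl3, a fatty acid elongase of brown fat, read 0, 1.48 and 6.14 CPM in eWAT and 1.75, 12.2 and 34.4 CPM in iWAT (-3.02 ± 0.29). Cidea and Cpt1b did not overlap between depots, and Elovl3 was lower in eWAT in 23 of 24 mice. Prdm16, a transcription factor of the brown fat programme chosen after its values were seen, read 10.7, 15.6 and 22.8 CPM in eWAT and 23.5, 34.4 and 55.6 CPM in iWAT (-1.17 ± 0.07). Muscle also makes several of these genes. In the fit with the signals of other tissues as terms, which leaves the mean difference in muscle signal in place, 18 of 20 were lower, and the 5 mice without a muscle signal gave 11 lower and 2 higher with a median of -1.10. In those 5 mice 16.4% of all genes were called.

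Genes of mitochondrial fuel use were lower in eWAT, and none of the respiratory chain or citrate cycle genes by 2-fold. Of 28 respiratory chain subunits 27 were lower (median log2 fold change -0.39), of 19 genes of the citrate cycle and pyruvate dehydrogenase 18 (median -0.53), and of 19 genes of mitochondrial fatty acid oxidation 17, with 1 higher (median -0.62). Sdha, the flavoprotein of complex II, read 263, 328 and 407.9 CPM in eWAT and 266, 545 and 649 CPM in iWAT (log2 fold change -0.59 ± 0.06). Hadhb, the thiolase subunit of the trifunctional protein, read 41.5, 56.4 and 76.4 CPM in eWAT and 55.5, 133 and 209 CPM in iWAT (-1.29 ± 0.07). The depots overlapped for both, and both were lower in eWAT in 24 of 24 mice. With the signals of other tissues as terms, centred within depot as above, the counts were 27, 18 and 18 lower. The 5 mice without a muscle signal gave 3, 4 and 6 lower, with medians of -0.24, -0.34 and -0.49. Sdha did not pass the test there, and Hadhb did. In that subset 16.4% of all genes were called, against 56% in all mice. Each of its mice had a cilia or duct signal in eWAT. Replicates 1 and 2 of 2 weeks were among them, and at 2 weeks alone the respiratory chain median was -0.11. The part of these signals and of age in the subset values was not tested.

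De novo lipogenesis genes followed the same direction for most members, lower in 15 of 20 and higher in 3 (median -0.41). The 5 mice without a muscle signal, where 16.4% of all genes were called, gave 4 lower and 1 higher (median -0.29). Elovl6, the elongase of palmitate, read 141, 971 and 1660 CPM in eWAT and 763, 3080 and 5478 CPM in iWAT (log2 fold change -1.72 ± 0.10), and Acacb, the acetyl-CoA carboxylase at mitochondria, read 146, 282 and 499 CPM in eWAT and 234, 675 and 1190 CPM in iWAT (-1.17 ± 0.09). Fads2, the delta-6 desaturase, went the other way at 9.92, 38.8 and 134 CPM in eWAT and 7.29, 15.2 and 24.9 CPM in iWAT (1.16 ± 0.18). Elovl6 was lower in eWAT in 24 of 24 mice, and Fads2 higher in 23; without the mice with a cilia signal Fads2 differed by 0.71 (adjusted p = 0.0953). Of 13 triglyceride synthesis genes 5 were higher and 6 lower: Mogat2, a monoacylglycerol acyltransferase, read 3.63, 19.6 and 40.4 CPM in eWAT and 1.58, 5.71 and 13.5 CPM in iWAT (1.57 ± 0.10), whereas Gpd1, which makes glycerol phosphate (-0.84 ± 0.08), Pck1, the entry enzyme of glyceroneogenesis (-0.77 ± 0.10), and Acsl1, a fatty acyl-CoA synthetase (-0.68 ± 0.08), were lower. In the 5 mice without a muscle signal 3 triglyceride synthesis genes were higher and 0 lower, and Gpd1, Pck1 and Acsl1 did not pass the test. Branched-chain amino acid breakdown was lower in 11 of 19 members and higher in 1 (median -0.16), for instance Bckdha, a subunit of the branched-chain ketoacid dehydrogenase (-0.40 ± 0.05), and Bckdk, the kinase that inhibits it (-0.45 ± 0.05). The same 5 mice gave 1 lower and 0 higher (median -0.10). Of 10 glucose and fructose transporters 5 were higher and 2 lower, against 27% and 28.9% over all genes. Slc2a5, the fructose transporter, read 0.442, 9.26 and 19.3 CPM in eWAT and 9.31, 54.7 and 89.9 CPM in iWAT (-2.59 ± 0.11), and Slc2a4, the insulin-regulated glucose transporter, read 212, 292 and 441.8 CPM in eWAT and 175, 431.6 and 612 CPM in iWAT (-0.52 ± 0.06). Slc2a12, a further glucose transporter, was higher in eWAT in 24 of 24 mice at 5.75, 9.81 and 15.7 CPM in eWAT and 1.04, 3.65 and 6.76 CPM in iWAT (1.42 ± 0.14). In the creatine cycle 3 of 5 were higher and 1 lower: Gatm, which makes the creatine precursor, read 3.07, 4.96 and 8.73 CPM in eWAT and 8.1, 13.2 and 17.3 CPM in iWAT (-1.39 ± 0.09), and Ckb, brain-type creatine kinase, read 41, 124 and 224 CPM in eWAT and 30.5, 42.4 and 73.1 CPM in iWAT (1.20 ± 0.19). Without the mice with a cilia signal Ckb differed by 0.47 (adjusted p = 0.0916).

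Of 18 core adipocyte genes 9 were higher and 4 lower in eWAT, none at 2-fold, with a median log2 fold change of 0.15. The shares over all genes were 27% higher and 28.9% lower. Adrb3, the beta-3 adrenergic receptor, read 1061, 1748 and 2436 CPM in eWAT and 386, 983 and 1543 CPM in iWAT (log2 fold change 0.83 ± 0.09), and Retn, the adipokine resistin, read 293, 501 and 675 CPM in eWAT and 157, 297 and 440.6 CPM in iWAT (0.71 ± 0.06). Cidec, a lipid droplet fusion protein, was higher (0.55 ± 0.07) and Pnpla2, the triglyceride lipase ATGL, lower (-0.40 ± 0.07). Among lipid droplet and lipolysis genes 3 of 18 were higher and 7 lower; Plin5, the perilipin that ties droplets to mitochondria, read 4.79, 12.8 and 18.8 CPM in eWAT and 11.3, 27.9 and 51.1 CPM in iWAT (-1.16 ± 0.11) and Plin2, the droplet coat protein of many tissues, differed by -0.90 ± 0.08. Of 26 receptors for catecholamines and metabolites 7 were higher and 11 lower; Adra2c, an alpha-2 adrenergic receptor, read 1.21, 4.43 and 14 CPM in eWAT and 0.405, 1.52 and 2.96 CPM in iWAT (1.74 ± 0.22) and followed the cilia genes. Clock genes (4 of 18 higher, 5 lower) and immediate early genes (3 of 18 higher, 4 lower) were called no more often than genes at large, with Hlf, a clock-controlled transcription factor, at -0.51 ± 0.09 and Nr4a2, an early-response nuclear receptor, at -0.76 ± 0.09.

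Secreted proteins included larger differences. Agt, angiotensinogen (chromosome 8, 124556534 to 124569706, minus strand, mm10), read 196, 264 and 536 CPM in eWAT and 8.2, 15.8 and 28.6 CPM in iWAT (log2 fold change 4.02 ± 0.12, adjusted p = 1.92e-20), with no overlap. Rbp4, the plasma retinol carrier, read 303, 485 and 759 CPM in eWAT and 118, 230.4 and 406.98 CPM in iWAT (1.06 ± 0.07) and was higher in eWAT in 24 of 24 mice. Metrnl, a secreted meteorin-like protein, read 14.5, 19 and 25.7 CPM in eWAT and 19.9, 41.7 and 92.8 CPM in iWAT (-1.03 ± 0.15). Sfrp5, a secreted Wnt antagonist, read 14.8, 74.2 and 152 CPM in eWAT and 15.1, 34.1 and 80.3 CPM in iWAT (0.85 ± 0.14). Of 20 adipokine and secreted adipocyte genes tested 10 were higher and 7 lower. Lep differed by 0.62 ± 0.08 and Adipoq by 0.35 ± 0.07. Acute phase genes were higher in eWAT in 8 of 10 members and lower in 1 (median 0.66), among them Lbp, the lipopolysaccharide-binding protein, at 39.5, 79.8 and 137 CPM in eWAT and 17.1, 29.6 and 54.2 CPM in iWAT (1.46 ± 0.08). Lcn2, the iron-carrier-binding lipocalin, read 0.888, 12.6 and 60.5 CPM in eWAT and 0.13, 0.923 and 6.84 CPM in iWAT (3.61 ± 0.36) and followed the cilia genes; without the mice with a cilia signal it differed by 1.5.

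**Figure D4:**
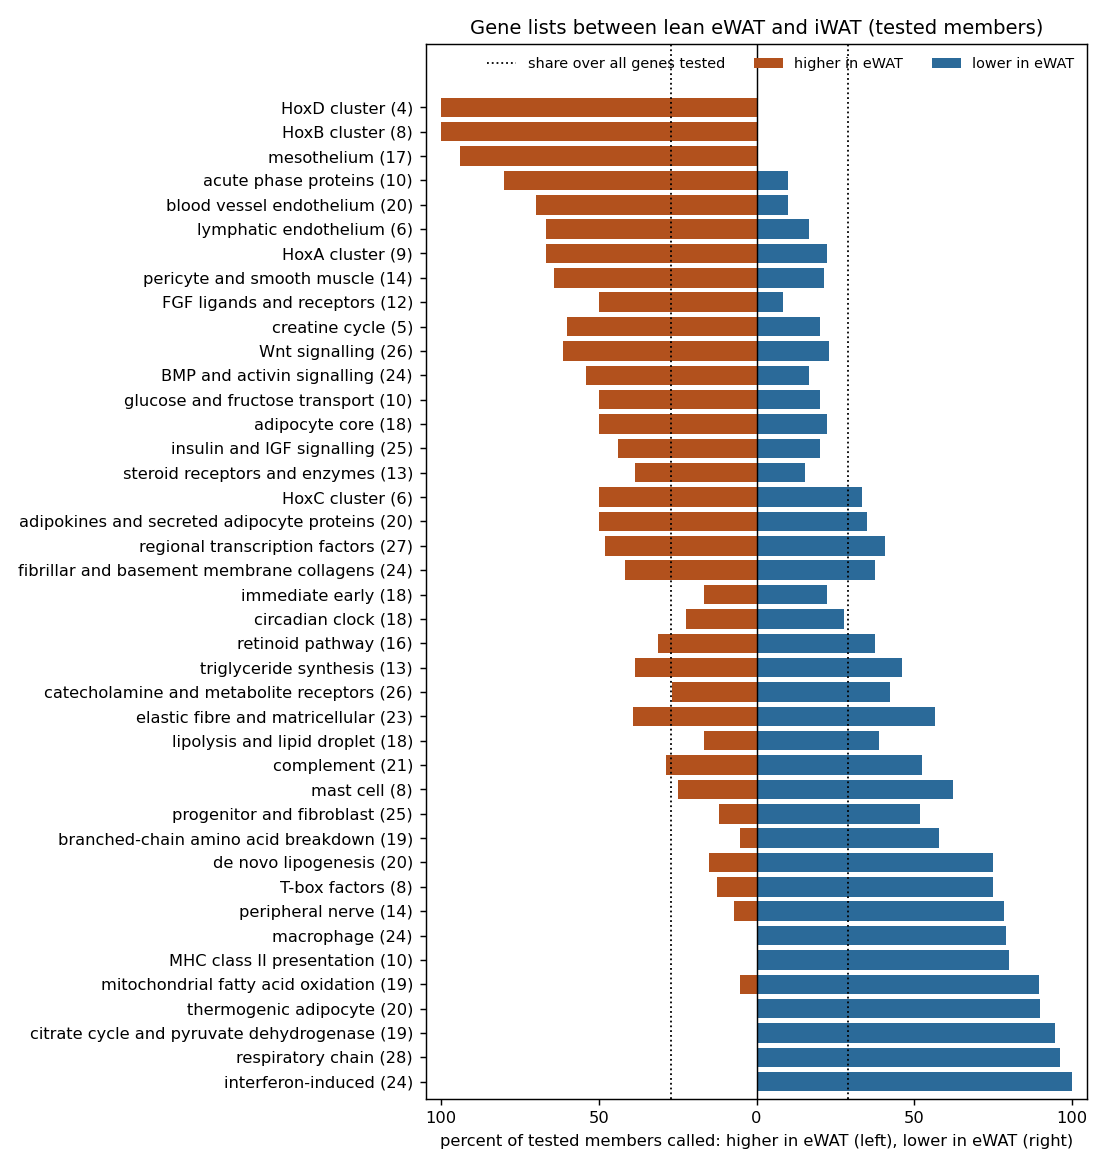
Share of the tested members of each gene list called higher (left) or lower (right) in eWAT, with the number tested in brackets and dotted lines at the shares over all 13003 genes, 27% higher and 28.9% lower. Mesothelium (16 of 17 higher) stands near the top, and interferon-induced genes (24 of 24 lower) at the bottom.

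Signals that pattern mesenchyme were largely higher in eWAT. In Wnt signalling 16 of 26 members were higher and 6 lower (median log2 fold change 0.44). Rspo1, a secreted enhancer of Wnt signalling, read 35.9, 58.6 and 109 CPM in eWAT and 0.848, 2.19 and 3.91 CPM in iWAT (4.73 ± 0.13); it followed the cilia genes across eWAT libraries, and its lowest eWAT library lay above its highest iWAT library. Wnt2b, a Wnt ligand, read 14.2, 37.8 and 56.5 CPM in eWAT and 1.71, 2.74 and 4.2 CPM in iWAT (3.68 ± 0.11). Wnt2, by contrast, was lower in eWAT (0, 0.424 and 0.859 CPM in eWAT and 2.69, 8.66 and 21.7 CPM in iWAT), and so was the Wnt antagonist Dkk2 (0.196, 1.42 and 4.66 CPM in eWAT and 3.11, 10.6 and 24.4 CPM in iWAT, log2 fold change -2.88 ± 0.21). Ligands of the family thus stood on each side. In BMP and activin signalling 13 of 24 were higher and 4 lower (median 0.23). Nog, a BMP antagonist, read 11.7, 17.3 and 30.5 CPM in eWAT and 0.27, 1.53 and 5.81 CPM in iWAT (3.46 ± 0.18), and the ligand gene Bmp4 read 18.5, 28.2 and 47.7 CPM in eWAT and 4.66, 7.55 and 10.9 CPM in iWAT (1.92 ± 0.08). This antagonist and this ligand were both higher in eWAT without overlap. Among 12 FGF ligands and receptors 6 were higher and 1 lower; Fgf1, a growth factor of adipose expansion, read 145, 193 and 254 CPM in eWAT and 25.5, 44.6 and 83.8 CPM in iWAT (2.14 ± 0.11), and Fgf9 4.32, 6.75 and 11.8 CPM in eWAT and 0.519, 1.32 and 1.98 CPM in iWAT (2.4 ± 0.13).

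Of 16 retinoid genes 5 were higher and 6 lower in eWAT, near the 27% and 28.9% over all genes. Aldh1a2, which makes retinoic acid and is known from mesothelium, read 5.59, 8.79 and 12.5 CPM in eWAT and 0.417, 1.33 and 2.19 CPM in iWAT (log2 fold change 2.72 ± 0.14), and Aldh1a1, a related retinaldehyde dehydrogenase, read 104, 127 and 159 CPM in eWAT and 28.4, 38.9 and 67.7 CPM in iWAT (1.65 ± 0.07). Both were higher in eWAT without overlap. Of 25 insulin and IGF signalling genes 11 were higher and 5 lower. Igfbp5, a binding protein of insulin-like growth factors, was lower in eWAT at 228, 432.98 and 856 CPM in eWAT and 611, 1236 and 2713 CPM in iWAT (-1.47 ± 0.12), and Igf2, a growth factor, was higher at 21.2, 25.6 and 38.2 CPM in eWAT and 7.69, 14.7 and 28.3 CPM in iWAT (0.80 ± 0.09). Of 13 steroid receptor and enzyme genes 5 were higher and 2 lower. Fkbp5, a glucocorticoid-induced chaperone, read 37.6, 86.2 and 178 CPM in eWAT and 24.7, 40.0 and 83.9 CPM in iWAT (1.02 ± 0.10).

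Stroma and matrix genes stood on both sides. Of 25 progenitor and fibroblast genes 3 were higher and 13 lower in eWAT (median log2 fold change -0.25). Pi16, a marker of early progenitors near vessels, read 42.3, 58.4 and 94.6 CPM in eWAT and 135, 291 and 608 CPM in iWAT (-2.23 ± 0.10), and Cxcl14, a chemokine of fibroblasts, read 3.53, 6.26 and 18.5 CPM in eWAT and 17.3, 41.5 and 114 CPM in iWAT (-2.82 ± 0.17). Fmo2, a monooxygenase of fibroblasts, was higher at 76.7, 106 and 198 CPM in eWAT and 21.9, 29.3 and 45.5 CPM in iWAT (1.84 ± 0.06). Pi16 and Fmo2 did not overlap between the depots. Of 24 collagens 10 were higher and 9 lower: Col1a1, the main fibrillar collagen, read 84.5, 114 and 177.47 CPM in eWAT and 177.49, 534 and 2532 CPM in iWAT (-2.12 ± 0.15) and Col6a3 65.7, 107 and 146 CPM in eWAT and 230.2, 428.3 and 1180 CPM in iWAT (-1.98 ± 0.10), whereas the basement membrane chain Col4a6 read 9.5, 12.2 and 40.9 CPM in eWAT and 0, 0.521 and 1.45 CPM in iWAT (4.63 ± 0.19). Col6a5, set apart because it followed the muscle genes across eWAT libraries, read 50.2, 88.7 and 205 CPM in eWAT and 0.267, 2.21 and 13.5 CPM in iWAT (5.21 ± 0.22). These chains of collagen VI thus lay on opposite sides, and none of the 4 collagens overlapped between the depots. Of 23 elastic fibre and matricellular genes 9 were higher and 13 lower, for instance Fbln1, fibulin 1 (1.6 ± 0.10), and Thbs2, thrombospondin 2 (-1.85 ± 0.14).

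Vessel genes were slightly higher in eWAT. Of 20 blood endothelial genes 14 were higher and 2 lower (median 0.23), none at 2-fold; Vwf, von Willebrand factor, read 43.6, 70.5 and 141 CPM in eWAT and 31.3, 40.4 and 55.6 CPM in iWAT (log2 fold change 0.81 ± 0.10). Of 6 lymphatic genes 4 were higher and 1 lower. Mmrn1, a multimerin of lymph vessels, read 5.36, 17.4 and 32.1 CPM in eWAT and 0.217, 1.66 and 21.5 CPM in iWAT (2.83 ± 0.29), and Flt4, the lymphatic VEGF receptor, read 16.5, 24.4 and 30.4 CPM in eWAT and 8.64, 12.9 and 16.9 CPM in iWAT (0.91 ± 0.05) and was higher in eWAT in 24 of 24 mice. Of 14 pericyte and smooth muscle genes 9 were higher and 3 lower (median 0.48), but their summed level reached 9110 CPM in the eWAT library of 6 weeks replicate 5 and 3420 CPM in that of 2 weeks replicate 2, the libraries with the most duct RNA, against medians of 1070 CPM in eWAT and 1020 CPM in iWAT. Myh11, smooth muscle myosin, read 28.9, 53.4 and 1940 CPM in eWAT and 20.2, 28.4 and 38 CPM in iWAT (1.10 ± 0.25). Without the 4 mice with a duct signal 8 were higher and 3 lower with a median of 0.38, and Myh11 differed by 0.83 (adjusted p = 7.46e-09); without the mice with a cilia signal it differed by 1.31 (adjusted p = 0.0625).

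Nerve sheath genes were lower in eWAT in 11 of 14 members and higher in 1, with a median log2 fold change of -1.78. Mbp, the myelin basic protein, read 12.4, 18.1 and 26.5 CPM in eWAT and 70.5, 115 and 161 CPM in iWAT (-2.66 ± 0.09), Sox10, the transcription factor of Schwann cells, 0.21, 0.792 and 4.91 CPM in eWAT and 3.24, 8.94 and 14.9 CPM in iWAT (-3.17 ± 0.21), and Cdh19, a cadherin of Schwann cells, 0.28, 1.03 and 3.19 CPM in eWAT and 3.37, 7.09 and 11.1 CPM in iWAT (-2.83 ± 0.17). Each was lower in eWAT in 24 of 24 mice. In the 5 mice without a muscle signal the log2 fold changes were -2.37 for Mbp and -3.23 for Cdh19, each past the test. The member higher in eWAT was Scn7a, a sodium channel of Schwann cells (0.46 ± 0.07).

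Interferon-induced genes were lower in eWAT in 24 of 24 members (median log2 fold change -0.77). Oas3, a sensor of double-stranded RNA, read 0.382, 1.17 and 2.75 CPM in eWAT and 2.26, 5.41 and 22.7 CPM in iWAT (-2.46 ± 0.25), Mx1, an antiviral GTPase, 1.03, 2.7 and 5.45 CPM in eWAT and 2.27, 6.94 and 30.7 CPM in iWAT (-1.64 ± 0.21), and Zbp1, a nucleic acid sensor, 2.37, 4.52 and 7.79 CPM in eWAT and 6.88, 12.6 and 27.4 CPM in iWAT (-1.61 ± 0.17). The ranges overlapped, and Zbp1 was lower in eWAT in 24 of 24 mice. All 24 were also lower among the 16 mice without a lymph node signal in iWAT, where 49% of all genes were called (median -0.65). Of all genes 16.4% were called in the 5 mice without a muscle signal and 34.7% in the 11 without a cilia signal. These 5 mice gave 19 interferon-induced genes lower and these 11 gave 17, with 0 higher in each. Those 5 included 2 weeks replicate 1, 2 weeks replicate 2 and 12 weeks replicate 6, which had a lymph node signal in iWAT.

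Macrophage genes were lower in eWAT in 19 of 24 members and higher in 0 (median -0.75). Gpnmb, a glycoprotein of lipid-laden macrophages, read 7.04, 14.1 and 22.9 CPM in eWAT and 10.4, 48.8 and 159.9 CPM in iWAT (log2 fold change -1.75 ± 0.21), Clec10a, a lectin of resident macrophages, 21, 27.8 and 45.3 CPM in eWAT and 33.1, 82.5 and 149 CPM in iWAT (-1.32 ± 0.15), and Fcgr1, a high-affinity antibody receptor, 3.36, 4.87 and 7.19 CPM in eWAT and 4.69, 11.4 and 46.7 CPM in iWAT (-1.37 ± 0.20). Clec10a was lower in eWAT in every mouse. Among the 16 mice without a lymph node signal, where 49% of all genes were called, 16 of 24 were lower and 1 higher (median -0.59). The 5 mice without a muscle signal, where 16.4% of all genes were called, gave 5 of 24 lower and 0 higher (median -1.01). Some of these 5 mice had a lymph node signal. Mast cell genes were lower in 5 of 8 members, all 5 at 2-fold or more: Mcpt4, a mast cell chymase, read 4.32, 7.19 and 15.5 CPM in eWAT and 11.6, 28.4 and 66.1 CPM in iWAT (-1.83 ± 0.14) and Cma1, another chymase, 2.66, 5.07 and 11.3 CPM in eWAT and 6.77, 15.9 and 39.8 CPM in iWAT (-1.64 ± 0.14). Hdc, the enzyme that makes histamine, was higher (1.64 ± 0.36) and followed the cilia genes; without those mice it differed by -0.13. MHC class II genes were lower in 8 of 10 members over all mice (median -0.39) and in 9 of 10 with the signals of other tissues as terms (median -0.40), a fit that leaves the mean difference in lymph node signal in place. Among the mice without a lymph node signal, where 49% of all genes were called, 2 of 10 were lower and 1 higher (median -0.22), and with library totals in place of TMM 4 of 10 were lower. Of 21 complement genes 6 were higher and 11 lower: C6, a component of the membrane attack complex, read 22.3, 31.9 and 69.1 CPM in eWAT and 3.88, 7.14 and 14.8 CPM in iWAT (2.18 ± 0.11), and Masp1, a protease of the lectin pathway, 1.36, 3.78 and 10.2 CPM in eWAT and 0.122, 0.493 and 2.46 CPM in iWAT (2.68 ± 0.17).

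How many genes changed their depot difference across the 4 ages depended on the test. edgeR's test of the depot by time terms called 5 genes (0.0385%), with 2539 at an unadjusted p under 0.05, and DESeq2's likelihood ratio test called 633. In simulated data in which 12 weeks alone differed, edgeR's test recovered 35% of 1.5-fold and 68% of 2-fold changes, so the 5 calls do not show that few genes changed. Etfa, the alpha subunit of the electron transfer flavoprotein, and Eci1, an enoyl-CoA isomerase, are fatty acid oxidation genes (adjusted p = 0.0305 each in edgeR's test). Etfa averaged 52.2 ± 9.92, 43.8 ± 8.03, 40.7 ± 6.4 and 40.7 ± 3.18 CPM in eWAT and 63.7 ± 9.32, 43 ± 10.1, 65.5 ± 14.9 and 65.5 ± 12 CPM in iWAT at 0, 2, 6 and 12 weeks (SD, n = 6 mice at each time). Its log2 fold change was -0.30, 0.06, -0.68 and -0.68 at these times, and eWAT was higher in 0, 5, 0 and 0 of 6 mice. Eci1 had log2 fold changes of -0.46, -0.04, -0.77 and -0.79. In both genes the 2-week mice stood apart, with iWAT levels near those of eWAT.

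Prrt2, a presynaptic membrane protein, averaged 18.4 ± 4.86, 22.4 ± 3.03, 21.8 ± 1.22 and 23.4 ± 3.93 CPM in eWAT and 21.3 ± 6.11, 25.5 ± 4.84, 16.6 ± 2.71 and 14.9 ± 3.77 CPM in iWAT at the 4 times (adjusted p = 0.0305, edgeR). Its log2 fold change of -0.20, -0.16, 0.40 and 0.66 changed sign between 2 and 6 weeks, and eWAT was higher in 1, 0, 6 and 6 of 6 mice. Pmepa1, a membrane protein induced by TGF-beta, had log2 fold changes of -0.19, 0.28, -0.46 and -0.49, and Dlg2, a synaptic scaffold protein, of 0.53, -0.34, 1.27 and 0.16 (adjusted p = 0.0477 each). Cyp1b1, a cytochrome P450 enzyme with the next lowest p, did not pass (adjusted p = 0.0737). The number of calls turned on single mice. Leaving out each of the 24 mice in turn gave 0 calls for 7 of them, 1 to 8 for 13, and 46, 51, 192 and 564 without replicate 3 at 0 weeks, replicate 3 at 2 weeks, replicate 3 at 6 weeks and replicate 4 at 12 weeks.

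List medians by age showed the same 2-week difference for fuel genes. The respiratory chain median was -0.36, -0.11, -0.62 and -0.57 on the log2 scale at 0, 2, 6 and 12 weeks, with 21, 0, 28 and 25 of 28 members called lower in the 6 mice of each time. The macrophage median ran the other way, at -0.69, -1.46, -0.45 and -0.46, with 11, 21, 4 and 5 of 24 members called lower. The interferon-induced median was -0.96, -1.17, -0.40 and -0.51. No member of these lists was called in edgeR's test across ages. At an unadjusted p under 0.05 in that test stood 26 of 28 respiratory chain, 16 of 24 macrophage and 19 of 24 interferon-induced genes. Over all 13003 genes tested the number was 2539. Of 19 fatty acid oxidation genes 18 were under it, and 2, Etfa and Eci1, were called. The mice with a lymph node signal in iWAT numbered 1, 3, 1 and 3 of 6 at the 4 times, and those with a cilia signal in eWAT 3, 2, 2 and 6, so the cilia signal was in every 12-week mouse and in some mice of each other time; the part of both signals in these medians was not tested. The mesothelium median stayed between 4.95 and 6.59, and the nerve median between -2.13 and -1.49. The mouse numbers fall into 2 runs, replicates 1 to 3 and 4 to 6; edgeR's test of the depot difference between them called 0 genes, with 1369 at an unadjusted p under 0.05 and 25 called by DESeq2's likelihood ratio test.

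**Figure D5:**
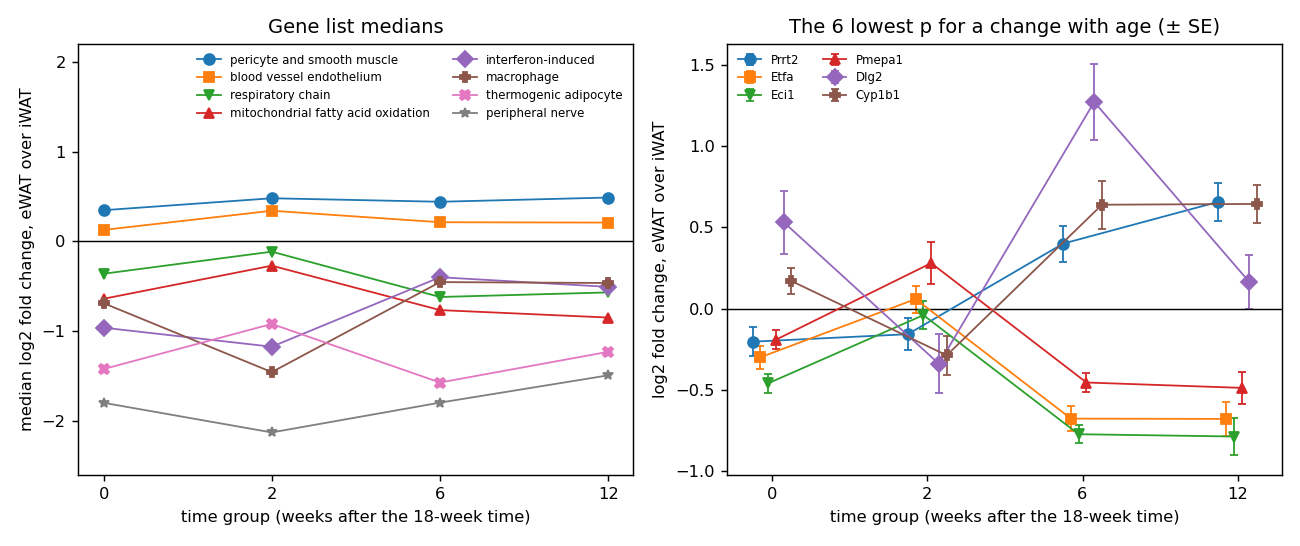
Left, the median log2 fold change of eWAT over iWAT of 8 gene lists at 0, 2, 6 and 12 weeks (6 mice each); right, the log2 fold change (± SE) of the 6 genes with the lowest p for a change with age. The respiratory chain median comes closest to 0 at 2 weeks (-0.11), where the macrophage median is lowest (-1.46), and Dlg2 reaches 1.27 at 6 weeks.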

How the data were processed

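Poly(A) RNA of both frozen depots was sequenced with paired-end Illumina reads, per the labels. The authors deposited raw counts per gene symbol for 20411 genes; the submitters' processing notes name STAR 2.4.1c, mm10, R 4.2.2 and DESeq2 1.38.3, and what was used for counting, with its annotation and strand setting, is not given in the sources used. The authors' own DESeq2 tables were not used. Lean libraries of both depots were joined by gene and paired by the mouse number in the titles. Same-mouse libraries deviated together with correlations of -0.0185 to 0.324 (median 0.167) after removal of group means, 16 of 24 above 0.1, against a median of -0.0333 between different mice. Among 120 pairs of libraries of the same group none agreed within sampling noise (lowest chi-square per degree of freedom 3.63).

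Genes with 10 counts (CPM of about 1.16 at the median library) in at least 20 libraries were tested with edgeR 4.0.16 in R 4.3.3 (TMM, quasi-likelihood F-test, mouse as a block, Benjamini-Hochberg over 13003 genes). Standard errors are the log2 fold change over the square root of F. In data simulated for 13003 genes, the depot test recovered 89% of genes changed 1.5-fold and 98% of those changed 2-fold, and the age test 35% and 68% where 12 weeks alone was changed. The labels call the libraries biological replicates. Named genes were the 12 largest in each direction among called genes of 5 CPM or more that were not set apart, the 3 largest set apart, up to 4 per list, all tested Hox, T-box and regional genes, and the 6 lowest p-values for age; exceptions are marked, and some named genes are not reported here. The members and lists were chosen with earlier results of these data known. Positions are from GENCODE M21 (12570 of 13003 genes). Alternatives used limma 3.58.1, DESeq2 1.42.0, other scalings and filters, and subsets of mice.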

Additional observations from a re-analysis of the deposited data

Results flagged for a closer look

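The depot difference of 5 genes differed between the 4 ages by edgeR's test of the depot by time terms: Prrt2, Etfa and Eci1 at an adjusted p of 0.0305 each, and Pmepa1 and Dlg2 at 0.0477 each. Eci1, Etfa and Pmepa1 were lower in eWAT at 0, 6 and 12 weeks and close to 0 or higher at 2 weeks, while Prrt2 was higher in eWAT in 6 of 6 mice at 6 and at 12 weeks.

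In 6 of 48 groups of 6 libraries tested, a library lay farther from its neighbour than Dixon's 95% limit for its group's range allows, which chance gives in about 1 of 20 groups. Eci1 read 45.1 CPM in eWAT of 0 weeks replicate 5. Pmepa1 read 444.43 CPM in eWAT of 2 weeks replicate 2, and in 6 weeks replicate 3 it read 347.23 CPM in eWAT and 478.98 CPM in iWAT, so this mouse stood apart in both depots. Dlg2 read 13.3 CPM in eWAT of 6 weeks replicate 5 and 9.85 CPM in iWAT of 2 weeks replicate 2. The eWAT libraries of 6 weeks replicate 5 and 2 weeks replicate 2 also held the most duct RNA, 5380 and 2440 CPM; the part of this in the Dlg2 and Pmepa1 values was not tested.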

How the results depend on the processing

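All 215 tested genes that the naming rule gave kept their direction and call under DESeq2, its size factors, scaling by totals, no filter and limma, and the 7277 calls moved to between 6992 and 7362 with each mouse left out (1002 to 1103 at 2-fold). Smaller sets of mice gave fewer calls: 3464, 3122, 3179 and 3558 at 0, 2, 6 and 12 weeks alone, 4740 in replicates 1 to 3, 2144 in the 5 mice without a muscle signal and 4437 in the 11 without a cilia signal. Of the genes that the naming rule gave, 46 of 209 tested lost their call in the 5 mice without a muscle signal. In the 11 mice without a cilia signal 25 of 212 did. At 0, 2, 6 and 12 weeks alone the numbers were 26 of 209, 41 of 213, 40 of 210 and 24 of 211. With no filter on low counts 2811 genes were called at 2-fold. Without the replicate block, that is with unpaired mice, 6986 genes were called (1236 at 2-fold), and Cldn5, Egr2, Fosb, Foxf1 and Irx1 lost their call. The 5 age calls became 633 by DESeq2's likelihood ratio test, 3 with its size factors, 3 with no filter, 15 with signals of other tissues as terms and 0 without the mice with a lymph node signal; leaving out each mouse gave 0 to 564. The 0 calls between mouse runs became 25 by DESeq2 and 0 to 10 with each mouse left out (10 without 12 weeks replicate 6, 1 without 6 weeks replicate 6).

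Log2 fold changes that turned round were those of Hoxa2 (-0.00333), Hoxc6 (-0.21) and Reln (-0.14) at 0 weeks alone, Pdpn (-0.16) at 2 weeks, Egr3 (0.13), Hoxa3 (-0.0592) and Prrx2 (0.27) at 6 weeks, Fosb (-0.12) at 12 weeks, Meox2 (-0.00586) without the muscle mice, and Hdc (-0.13), Hoxa3 (-0.00192) and Slc6a8 (-0.21) without the cilia mice; the cause was not tested. Intervals cover counting error only.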
